A study of Mus musculus with 23 samples.

Results

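Leukaemic granulocyte-macrophage progenitors (L-GMPs) of control mice carrying the MLL-AF9 oncogene were set against normal granulocyte-macrophage progenitors (GMPs) of control mice, so that Cebpa was intact on both sides. The arrays were chosen by their labels: 4 arrays of L-GMPs, 2 from primary and 2 from secondary transplants, and 3 arrays of GMPs, which makes 7 of the 23 arrays of the study. The study profiled sorted mouse bone marrow cells with and without C/EBPa on Affymetrix arrays, in 9 groups of 1 to 4 arrays.

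Control donors were Mx.1-Cre- C/EBPa f/f mice, whose floxed gene is not cut because they lack the Cre recombinase, and they received poly I:C 3 times, every other day. The normal GMPs were taken from the marrow of such mice, named wild-type controls in the labels, 5 days after 3 poly I:C injections. For the leukaemias, KSLs (lineage-negative, Sca-1+, c-kit+ cells, a stem-cell-enriched fraction) of control mice were cultured in serum-free medium with IL-3 at 10 ng/ml and with thrombopoietin and stem cell factor, both at 100 ng/ml. They were then infected with MSCV-MLL-AF9-IRES-GFP, a retrovirus that expresses the fusion gene and a fluorescent marker, and were given to lethally irradiated congenic recipients with congenic marrow for radioprotection. Primary L-GMPs came from the marrow of these recipients, and secondary L-GMPs from recipients of a second transplantation of such marrow. The labels give the gate for common myeloid progenitors (CMPs) and none for GMPs or L-GMPs. The donors of the GMPs were not transplanted, so the oncogene, the culture, the transplantation, the interval after poly I:C and any array batch cannot be told apart in this comparison. The labels do not say that replicates came from separate mice, so the p-values rest on the spread among these arrays alone, which may in part be technical.

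MLL-AF9 joins the amino-terminal part of the chromatin regulator MLL to AF9, a partner of the machinery that lets RNA polymerase leave paused promoters, and it keeps genes of the Hoxa cluster and their cofactor Meis1 active in myeloid progenitors. Cells of the GMP stage can carry the leukaemia in this mouse model, which makes the normal GMP the usual reference for the L-GMP. C/EBPa is the transcription factor that moves progenitors into the granulocyte and monocyte lineages.

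Levels are log2 expression values made by the submitters with RMA, with a floor at 3. They are comparable between arrays for one gene and not between genes, and a difference of 1 is a 2-fold change. Fits used limma on 19937 genes of all 23 arrays, and a gene counted as called at a Benjamini-Hochberg (BH) adjusted p below 0.05, which is the p given throughout. Differences are given with their standard error (SE). Primary L-GMP replicate 2 stood apart: its correlation over genes was 0.894 to 0.905 with the GMP arrays and 0.939 to 0.947 with the other L-GMP arrays, while the GMP pairs reached 0.987 to 0.988 and the secondary pair 0.983. The median absolute deviation of an array from its group was 0.212 in primary L-GMPs, 0.133 in secondary L-GMPs and 0.0926 in GMPs. High Xist, a transcript of female cells, was found on 3 of 3 GMP arrays, on 1 of 2 primary and on 0 of 2 secondary L-GMP arrays, so sex moved with the comparison. With Xist as a covariate 3679 genes were called in place of 5052, and 106 of the 142 called genes named here kept their call.

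Cebpa itself was measured at 7.96 and 7.69 in primary L-GMPs, at 7.36 and 7.36 in secondary L-GMPs, and at 7.33, 7.78 and 7.48 in GMPs. The ranges overlapped, and the difference of 0.07 ± 0.18 (adjusted p = 0.837) was not called, while the mean in L-GMPs of knockout origin was 4.79 ± 0.42 (SD, n = 3). The labels of the L-GMPs were also set against their markers. Hoxa9, Hpgd and Eya1 were higher on each of the 4 L-GMP arrays than on any GMP array. These genes were chosen with earlier results of these data known, so their rise is no independent check of the labels. The Fc receptors that mark the GMP stage, Fcgr2b and Fcgr3, were at 7.63 to 8.36 and 9.42 to 10.28 on the L-GMP arrays, against 7.54 to 7.94 and 9.6 to 9.76 on the GMP arrays, and both were above the CMP means of 6.76 and 7.9. Kit and Cd34, also genes of common GMP gates, went the other way and were called lower in L-GMPs, at -1.23 and -0.8. The gate genes thus give a mixed picture of the GMP identity. Il7r, the interleukin-7 receptor of lymphoid progenitors, which GMPs lack, was at 9.34 in primary L-GMP replicate 1 and at 3.76 to 4.17 on the other 6 arrays. Its part in the results was not tested.

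Among all genes, 5052 of 19937 (25.3%) were called, 2115 higher (10.6%) and 2937 lower (14.7%) in L-GMPs. Called changes of at least 2-fold were fewer, with 388 genes (1.95%) higher and 600 (3.01%) lower. The 4 and 3 arrays did not overlap for 6141 genes (30.8%), 2609 higher (13.1%) and 3532 lower (17.7%), of which 4144 (20.8% of all) were also called. With each array centred on its median, which moves the median of all genes from -0.023 to 0.045, the split was 2917 higher and 2290 lower, so the share of higher calls moved from 41.9% to 56.0% with the scaling. Without GMP replicate 2 the count was 2764 and without GMP replicate 3 it was 3073; 2230 genes were called in the full fit and without each of the 7 arrays in turn.

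The promoters of 4 genes that the results turn on, Hpgd and the Hox genes Hoxa9 and Hoxa5 among the rises and Met among the falls, are shown to place these genes in the genome and to let their CpG content be compared. The sequences are those of RefSeq on GRCm38.p6, from 250 bases before to 50 bases after the gene's start, written from 5' to 3' on the gene's strand, with each CG dinucleotide in capitals. Hpgd lies on chromosome 8 (chr8:56294302-56294601, + strand), Hoxa9 and Hoxa5 lie in the Hoxa cluster on chromosome 6 (chr6:52227321-52227620 and chr6:52204538-52204837, both - strand), and Met lies on chromosome 6 (chr6:17463707-17464006, + strand).
Hpgd: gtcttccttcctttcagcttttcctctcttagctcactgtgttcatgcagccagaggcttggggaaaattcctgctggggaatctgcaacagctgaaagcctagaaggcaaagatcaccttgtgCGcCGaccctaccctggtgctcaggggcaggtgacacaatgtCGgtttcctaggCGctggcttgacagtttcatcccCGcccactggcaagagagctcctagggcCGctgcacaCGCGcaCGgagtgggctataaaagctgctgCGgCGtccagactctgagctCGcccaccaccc
Hoxa9: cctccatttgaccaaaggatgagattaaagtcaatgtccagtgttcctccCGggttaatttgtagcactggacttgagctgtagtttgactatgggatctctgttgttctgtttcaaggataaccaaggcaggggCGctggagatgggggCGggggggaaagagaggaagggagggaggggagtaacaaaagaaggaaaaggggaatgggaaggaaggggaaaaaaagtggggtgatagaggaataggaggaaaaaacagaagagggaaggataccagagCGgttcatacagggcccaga
Hoxa5: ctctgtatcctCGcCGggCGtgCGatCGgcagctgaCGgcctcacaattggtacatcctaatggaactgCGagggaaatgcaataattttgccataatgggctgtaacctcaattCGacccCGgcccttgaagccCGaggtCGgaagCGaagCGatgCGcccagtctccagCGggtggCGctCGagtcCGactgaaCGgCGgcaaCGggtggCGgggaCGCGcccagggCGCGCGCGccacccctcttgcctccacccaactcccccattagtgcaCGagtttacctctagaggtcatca
Met: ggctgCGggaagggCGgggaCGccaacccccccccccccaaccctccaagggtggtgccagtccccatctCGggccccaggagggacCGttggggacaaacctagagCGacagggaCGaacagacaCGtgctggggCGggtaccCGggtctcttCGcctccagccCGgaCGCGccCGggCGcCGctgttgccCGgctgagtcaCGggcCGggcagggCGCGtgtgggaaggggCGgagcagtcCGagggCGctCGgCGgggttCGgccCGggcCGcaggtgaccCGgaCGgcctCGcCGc

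The Hpgd promoter holds 12 CG dinucleotides and the Hoxa9 promoter 4. The promoters of Hoxa5 and Met, a gene that rose and a gene that fell, hold 29 and 34. Of the 32851 promoters of this length in the table, 39.6% hold as many as Hpgd or more, 68.6% as many as Hoxa9, 12.9% as many as Hoxa5 and 7.73% as many as Met, and the median is 7. A CG count is a description of these letters. Promoters were found for 15561 of the 19937 genes (78.1%), which is under the 80% needed to compare called with other genes, so that comparison was void.

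Hpgd, the dehydrogenase that takes the first step in inactivating prostaglandin E2, showed the largest rise of all genes tested. Prostaglandins are made from arachidonic acid that phospholipase A2 frees from membranes, leave the cell through transporters such as Abcc4 and act on neighbouring cells through receptors. Hpgd was at 11.69 and 11.67 in primary L-GMPs, at 11.46 and 11.69 in secondary L-GMPs and at 4.69, 4.41 and 4.42 in GMPs. The L-GMP arrays lay close together and far above the GMPs, by 7.12 ± 0.15 (SE) or 139-fold, with an adjusted p of 3.71e-14. CMPs of control mice were also low, at 4.6 ± 0.15 (SD, n = 4), and so were MLL-AF9 CMPs and KSLs of knockout origin from recipients without leukaemia, at 4.24 ± 0.06 (SD, n = 3) and a mean of 4.4 (n = 2). The 3 arrays of L-GMPs of knockout origin were high, at 11.11 ± 0.06 (SD). Hpgd was thus high on all 7 arrays of leukaemic cells and low on the other 16, transduced cells without leukaemia included.

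In the rest of the prostaglandin and leukotriene list 6 members fell and 16 did not pass the test. Of its 23 measured members 1, Hpgd, was called higher and 6 were called lower, where 10.6% and 14.7% of all genes were, and the list median was -0.44, against -0.02 over all genes. Ptger4 and Ptger2, the EP4 and EP2 receptors of prostaglandin E2, both fell. Ptger4 was at 5.15, 4.95, 4.63 and 5.45 in L-GMPs and at 6.92, 6.56 and 6.38 in GMPs, a fall by 1.58 ± 0.23 (adjusted p = 0.000353). Ptger2 was at 4.41, 4.24, 3.91 and 4.22 against 5.46, 5.74 and 5.14, a fall by 1.25 ± 0.16 (adjusted p = 0.00013). Neither receptor overlapped between the sides. Among enzymes and transporters, Ptges2, a prostaglandin E synthase, fell by 0.88 ± 0.2 (adjusted p = 0.00601), a further synthase, Ptges3, by 0.58 ± 0.12 (adjusted p = 0.00327) and the exporter Abcc4 by 0.78 ± 0.13 (adjusted p = 0.000933). A second probe set for Ptges3, of similar brightness, gave -0.24. The phospholipase Pla2g4a differed by -0.72 ± 0.25 (adjusted p = 0.0439), and its call was lost without any 1 of the 7 arrays, at an adjusted p of up to 0.109 without GMP replicate 3, and with the Xist covariate (0.13). The cyclooxygenase Ptgs2, which makes the precursor of the prostaglandins, did not pass, at -0.24 ± 0.32 (adjusted p = 0.619), and neither did the receptors Ptger1 (0.31 ± 0.17) and Ptger3 (-0.26 ± 0.56).

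**Figure D1:**
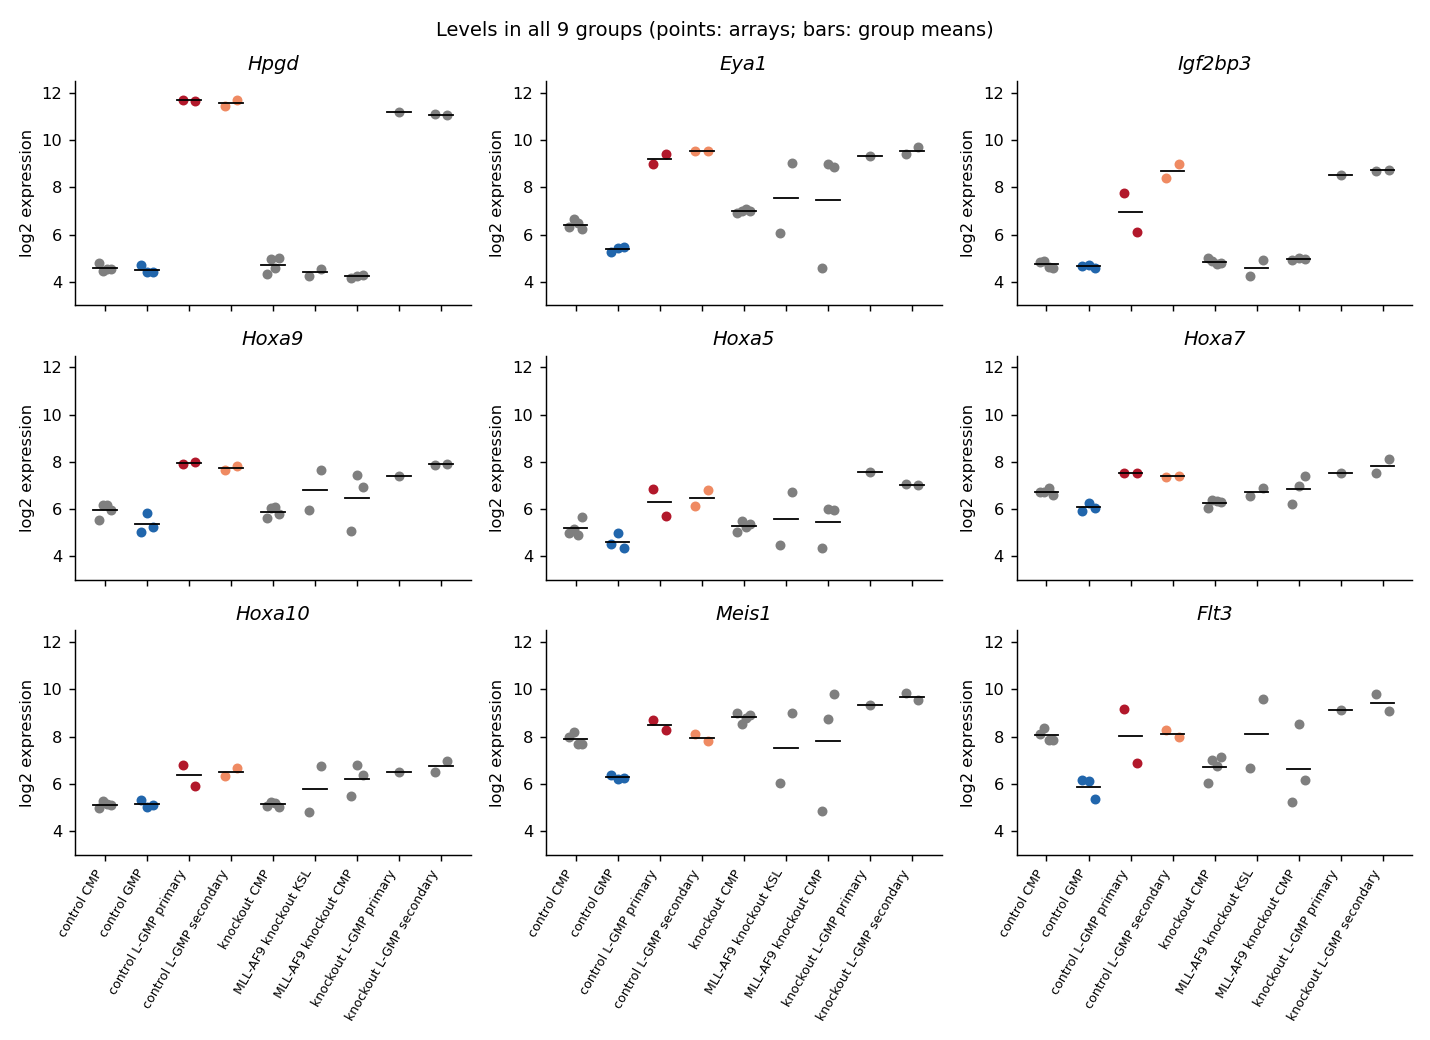
Log2 expression of 9 genes on each of the 23 arrays, by group (points are arrays, bars are group means; control L-GMPs in red and orange, control GMPs in blue, other groups in grey). Hpgd lies near 11 to 12 on the arrays of leukaemic cells and between 4 and 6 on all others, while Eya1, Hoxa9 and Meis1 are also high on some arrays of MLL-AF9 knockout KSLs and CMPs.

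The Hoxa genes, which set position along the body axis in the embryo and keep blood progenitors from differentiating, rose as a group in their middle part. Of 10 measured members 6 were called higher and 1 lower, where 10.6% and 14.7% of all genes were. The median was 1.03, and 8 members, against 30.8% of all genes, had no overlap between the sides. Hoxa9 was at 7.93 and 8.0 in primary L-GMPs, 7.66 and 7.83 in secondary L-GMPs and 5.05, 5.85 and 5.25 in GMPs, a rise by 2.47 ± 0.45 (5.54-fold, adjusted p = 0.00153). Hoxa7 was at 7.52, 7.52, 7.37 and 7.41 against 5.94, 6.25 and 6.03, a rise by 1.39 ± 0.21 (adjusted p = 0.000484). Both genes varied less among the 4 L-GMP arrays than the gap to the GMPs. Hoxa4 did not overlap either, but its spread was wide, with 1 array far above the others, at 6.85, 8.14, 7.15 and 7.01 against 6.39, 6.19 and 6.21 (1.02 ± 0.24, adjusted p = 0.00701, and 0.0774 with the 7 arrays fitted alone). Hoxa5 was at 6.87, 5.71, 6.12 and 6.83 against 4.53, 4.99 and 4.36, a difference of 1.76 ± 0.47 (adjusted p = 0.0139). Hoxa10 differed by 1.28 ± 0.36 (adjusted p = 0.018) and Hoxa6 by 1.04 ± 0.35 (adjusted p = 0.0389). The ends of the cluster did not follow: Hoxa2 (0.12 ± 0.23), Hoxa3 (0.51 ± 0.24) and Hoxa11 (0.61 ± 0.42) did not pass, and Hoxa13, at the far end, was lower by 0.45 ± 0.12 (adjusted p = 0.0128, and 0.0796 without GMP replicate 2).

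With Xist as a covariate 3 Hoxa genes were called higher and 0 lower, since Hoxa5 had an adjusted p of 0.0982, Hoxa6 of 0.144 and Hoxa10 of 0.0994, although the list median stayed at 1.01. The count was also 3 without GMP replicate 3, where Hoxa5 had an adjusted p of 0.0562, Hoxa10 of 0.0554 and Hoxa6 of 0.0942; Hoxa6 was lost without any 1 of the 7 arrays, and Hoxa10 also without GMP replicate 2 (0.0645) or secondary replicate 2 (0.0533).

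Meis1, the cofactor that binds DNA with HOX proteins, was at 8.69, 8.3, 8.09 and 7.8 in L-GMPs and at 6.38, 6.21 and 6.23 in GMPs, so that the sides did not overlap. The difference of 1.95 ± 0.83 did not pass in the fit to all arrays (adjusted p = 0.0959), whose SE takes in MLL-AF9 knockout CMPs and KSLs, groups with a wide spread between arrays. It passed with array weights (adjusted p = 0.027) and with the 7 arrays fitted alone (adjusted p = 0.00614). CMPs already held Meis1 at 7.88 ± 0.23 (SD, n = 4), and the L-GMPs differed from them by 0.34 ± 0.77 (adjusted p = 0.777). Pbx3, the cofactor with the next largest difference, was at 7.91, 7.17, 7.06 and 6.55 against 6.35, 6.27 and 6.32 (0.86 ± 0.42, adjusted p = 0.139). None of the 8 measured TALE cofactors was called, and their median was 0.27.

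Among 20 measured targets of MLL fusions outside the Hoxa cluster 3 were called higher and 1 lower (median 0.18), where 10.6% and 14.7% of all genes were. The list as a whole thus stayed near all genes, and single members are given for their own values. Eya1, a phosphatase and transcriptional coactivator, was at 9.0, 9.41, 9.55 and 9.53 in L-GMPs and at 5.27, 5.41 and 5.48 in GMPs. The sides lay more than 3 log2 units apart, at 3.98 ± 0.8 (15.8-fold, adjusted p = 0.00292), and the large SE again came with the wide spread of the MLL-AF9 knockout groups, where CMP arrays ranged from 4.59 to 8.99. Igf2bp3, an RNA-binding protein of fetal cells and many tumours, was at 7.77 and 6.11 in primary L-GMPs and at 8.4 and 8.97 in secondary L-GMPs, against 4.66, 4.69 and 4.6 in GMPs. It rose by 3.16 ± 0.27 (adjusted p = 6.64e-06), and the secondary arrays were higher than the primary ones by 1.74 ± 0.36 (adjusted p = 0.00832). Jmjd1c, a relative of the histone demethylases, rose by 0.93 ± 0.15 (adjusted p = 0.000714), and Zfp521, a zinc finger factor of early progenitors, fell by 1.28 ± 0.25 (adjusted p = 0.00266).

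Of 15 measured genes for the MLL complex and the elongation machinery 1 was higher and 3 were lower (median -0.09), shares near the 10.6% and 14.7% of all genes. The transcripts of both proteins that tether MLL to chromatin were among the lower ones. Psip1, which encodes LEDGF, was at 7.39, 6.81, 7.0 and 7.35 against 8.5, 8.13 and 8.21, a fall by 1.14 ± 0.18 (adjusted p = 0.000694). Men1, which encodes menin, was at 6.88, 6.47, 6.46 and 6.32 against 7.41, 7.61 and 7.67, a fall by 1.03 ± 0.16 (adjusted p = 0.000658). Mllt10, a partner of the methyltransferase DOT1L, rose by 0.63 ± 0.13 (adjusted p = 0.00286). Among 12 Polycomb genes, whose products silence developmental genes, Bmi1 rose by 0.76 ± 0.12 (adjusted p = 0.000769) and Ezh2 fell by 0.71 ± 0.17 (adjusted p = 0.00771), with 10 not called.

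Beyond these groups the largest rises took in secreted peptides and genes of myeloid cells. Penk, the precursor of enkephalins, was at 9.2, 6.12, 7.24 and 6.87 in L-GMPs and at 4.4, 4.45 and 4.44 in GMPs, a rise by 2.93 ± 0.47 (adjusted p = 0.000643). Olfm4, a protein of neutrophil granules, was at 8.0, 6.08, 7.06 and 5.58 against 3.93, 4.02 and 4.24, a rise by 2.62 ± 0.37 (adjusted p = 0.000292). Both were spread over 2 to 3 log2 units among the L-GMP arrays, the highest value being that of primary replicate 1. Npy, neuropeptide Y, was at 10.91 on that array and at 6.91, 6.67 and 7.6 on the others, against 5.62, 5.69 and 5.99, a difference of 2.26 ± 0.66 (adjusted p = 0.0211). Its call was lost with Xist as a covariate (1.49, adjusted p = 0.175), with the 7 arrays alone (0.154), and without GMP replicate 1 (0.0621), GMP replicate 2 (0.066) or secondary replicate 2 (0.0672).

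Slfn4, a schlafen gene of myeloid cells, was at 7.8, 7.56, 7.49 and 8.29 against 5.07, 5.44 and 5.26, a rise by 2.53 ± 0.18 (adjusted p = 8.31e-07). Cd33, a sialic acid-binding receptor of myeloid cells, was at 8.76, 7.91, 8.46 and 8.68 against 6.1, 5.98 and 6.3, a rise by 2.33 ± 0.5 (adjusted p = 0.00427). Fnbp1l, a protein that bends membranes and promotes actin assembly, rose by 2.58 ± 0.33 (adjusted p = 0.000155), from 6.57 to 7.06 in GMPs to 8.92 to 10.2 in L-GMPs. Klhl41, a kelch protein known from muscle, rose by 2.23 ± 0.22 (adjusted p = 2.36e-05), and Stfa3, a cysteine protease inhibitor, by 2.28 ± 0.32 (adjusted p = 0.000276), with primary arrays at 4.45 and 5.27 and secondary arrays at 6.53 and 6.76. In 3 genes of this set the probe sets disagreed. Cdk10 rose by 2.36 on the brightest probe set and differed by -0.25 on the other, Nyx by 2.55 and 0.17, and of the probe sets of Ccdc180 a pair rose (2.51 and 2.63) while the others lay between -0.4 and 0.61; averaged over its probe sets, Ccdc180 differed by 0.27 (adjusted p = 0.11), and its call was also lost without GMP replicate 2 (0.0781), GMP replicate 3 (0.0741), primary replicate 2 (0.089) or secondary replicate 2 (0.0525).

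The 15 largest falls took in receptors, granule proteins of basophils and eosinophils, enzymes and a histone. Met, the receptor of hepatocyte growth factor, was at 3.76, 4.22, 3.63 and 3.64 in L-GMPs, close to the floor of 3, and at 8.12, 7.61 and 7.27 in GMPs. It fell by 3.85 ± 0.2 (adjusted p = 3.11e-08), with every array above the floor, and the lowest GMP array lay far above the highest L-GMP array. Control CMPs held Met at 6.88 ± 0.29 (SD, n = 4), while CMPs of knockout mice were at 3.59 ± 0.17 (SD, n = 4) and L-GMPs of knockout origin at 3.63 ± 0.31 (SD, n = 3). Clec5a, a lectin receptor of monocytes and neutrophils, was at 4.73, 3.41, 3.88 and 4.34 against 7.78, 7.79 and 7.83, a fall by 3.71 ± 0.35 (adjusted p = 1.57e-05). Ccr2, the receptor that brings monocytes to sites of inflammation, was at 6.2, 5.98, 4.75 and 5.49 against 9.61, 8.53 and 8.51, a fall by 3.28 ± 0.55 (adjusted p = 0.000913). Neither receptor overlapped between the sides.

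Ak4, a mitochondrial adenylate kinase, fell by 3.82 ± 0.48 (adjusted p = 0.000141), and a second probe set for it gave -2.31. Ifitm3, an antiviral membrane protein that interferon induces, was at 6.7, 8.41, 5.5 and 7.21 against 11.19, 10.24 and 10.15, a fall by 3.57 ± 0.46 (adjusted p = 0.000155). Poly I:C, given 5 days before the GMPs were taken, is an inducer of interferon, and its part in this fall was not tested. CMPs held Ifitm3 at 10.66 ± 0.12 (SD, n = 4), and L-GMPs of knockout origin at 6.84 ± 0.73 (SD, n = 3). The 18 measured interferon response genes had a median of 0.03, with 2 higher and 2 lower, where 10.6% and 14.7% of all genes were. Each count was 1 without GMP replicate 1 or secondary replicate 2. The higher count was 1 also without GMP replicate 2 or 3, and the lower also without primary replicate 2 or secondary replicate 1. The remaining falls were those of H2ac4, a histone (3.43 ± 0.61 lower, adjusted p = 0.00133, with L-GMP arrays at 7.14, 4.83, 6.92 and 4.78), Nkg7, a membrane protein of cytotoxic granules, Ly6a2, Ppic, a cyclophilin, Bhlhb9, Maoa, which breaks down monoamines, and Tmem176b. Their differences lay between -3.47 ± 0.35 for Ly6a2 and -2.56 ± 0.2 for Tmem176b.

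**Figure D2:**
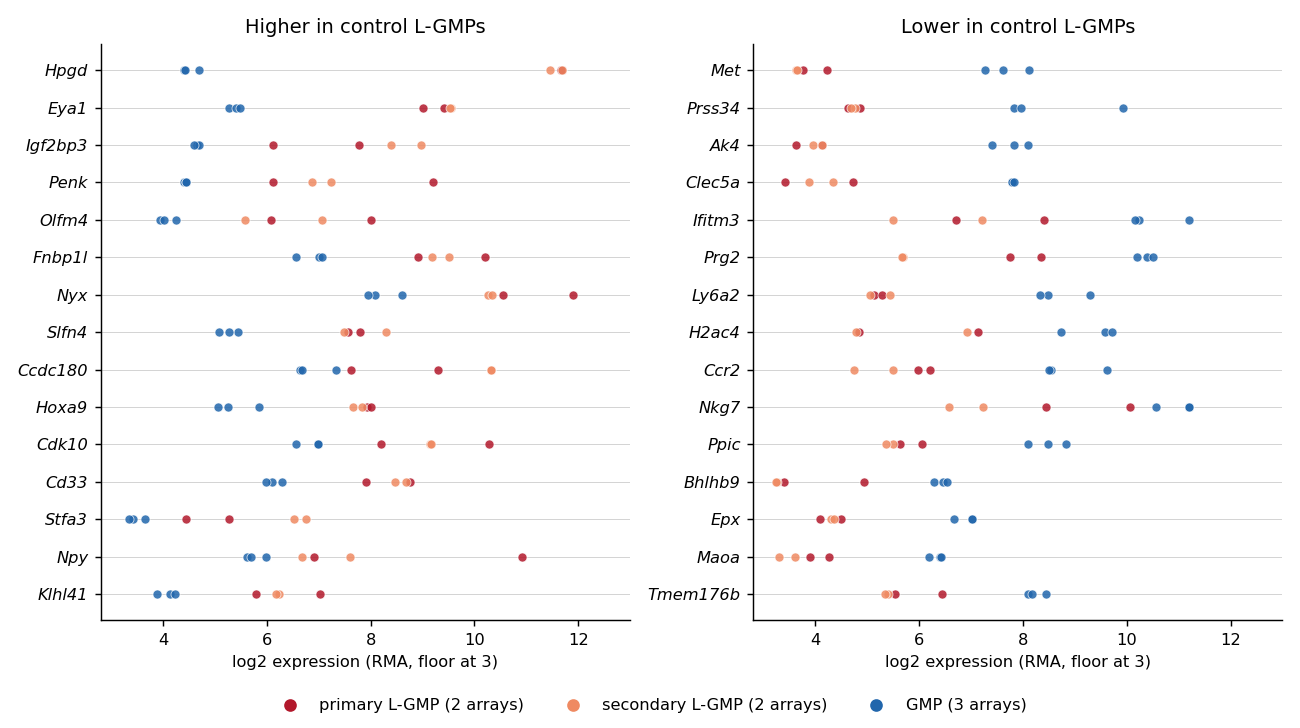
Log2 expression of the 15 largest rises and the 15 largest falls among genes called and without overlap between the sides, on each of the 7 arrays (red primary L-GMPs, orange secondary L-GMPs, blue GMPs). Hpgd stands about 7 log2 units to the right of the GMPs, and Met and Epx show little spread among the L-GMP arrays.

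The genes of cell division fell almost throughout. Of 25 measured DNA replication genes 18 were called lower and 0 higher (median -0.76), and of 22 measured mitosis genes 20 were called lower and 0 higher (median -0.95). Together 38 of 47 were lower, where 14.7% of all genes were. The L-GMP and GMP arrays did not overlap for 39 of the 47, against 30.8% of all genes. A lower mean in L-GMPs was found for 46 of 47, while the median difference over all genes was -0.02. On 35 of the 47 genes each L-GMP array lay below each GMP and each CMP array, a count that was not made over all genes. The mean log2 level of the replication list was 7.48 to 7.84 on the L-GMP arrays, 8.4 to 8.46 on the GMP arrays and 8.33 to 8.43 on the CMP arrays. For the mitosis list these ranges were 7.74 to 7.84, 8.59 to 8.72 and 8.37 to 8.62. In both lists the L-GMPs lay below both normal stages.

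Rrm2, the small subunit of ribonucleotide reductase, which makes the building blocks of DNA, was at 7.92, 6.52, 7.53 and 7.64 in L-GMPs and at 9.01, 9.12 and 9.17 in GMPs. It fell by 1.7 ± 0.26 (adjusted p = 0.000523), and the large subunit Rrm1 by 1.2 ± 0.27 (adjusted p = 0.00581). The helicase subunit Mcm3 was at 8.65, 8.39, 8.04 and 8.08 against 9.2, 9.12 and 9.1, a fall by 0.85 ± 0.11 (adjusted p = 0.000201). Gins2, another part of the replicative helicase, Tyms, which makes thymidylate, and Pola1, a subunit of the polymerase that starts new strands, fell by 0.86 ± 0.14, 0.84 ± 0.16 and 1.02 ± 0.19.

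In mitosis, Top2a, the topoisomerase that untangles chromosomes, was at 8.86, 8.68, 8.48 and 8.82 against 10.0, 9.82 and 9.77, a fall by 1.16 ± 0.18 (adjusted p = 0.000535). Aurkb, a kinase of chromosome segregation, was at 7.77, 8.05, 7.77 and 7.44 against 8.99, 9.02 and 8.77, a fall by 1.17 ± 0.14 (adjusted p = 0.000123). Neither gene overlapped between the sides. Prc1, which bundles the microtubules of the midzone, the kinases Plk1 and Bub1 and the spindle protein Nusap1 fell by 1.23 ± 0.18, 1.15 ± 0.2, 1.13 ± 0.15 and 1.11 ± 0.19. Ccnd2, a D cyclin that carries cells through the first gap phase, was at 7.02, 7.38, 7.13 and 7.12 against 8.81, 8.63 and 9.15, a fall by 1.7 ± 0.16 (adjusted p = 1.56e-05), and its kinase Cdk4 fell by 0.72 ± 0.11 (adjusted p = 0.000507). Of the 14 D cyclins, their kinases and inhibitors 3 were lower and 0 higher, where 14.7% and 10.6% of all genes were. Replication counts fell to 11 with Xist as a covariate, without GMP replicate 1 or without GMP replicate 3, and mitosis counts were 15 with the covariate and 18 to 20 without any 1 array; under median centring the counts were 17 and 19.

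**Figure D3:**
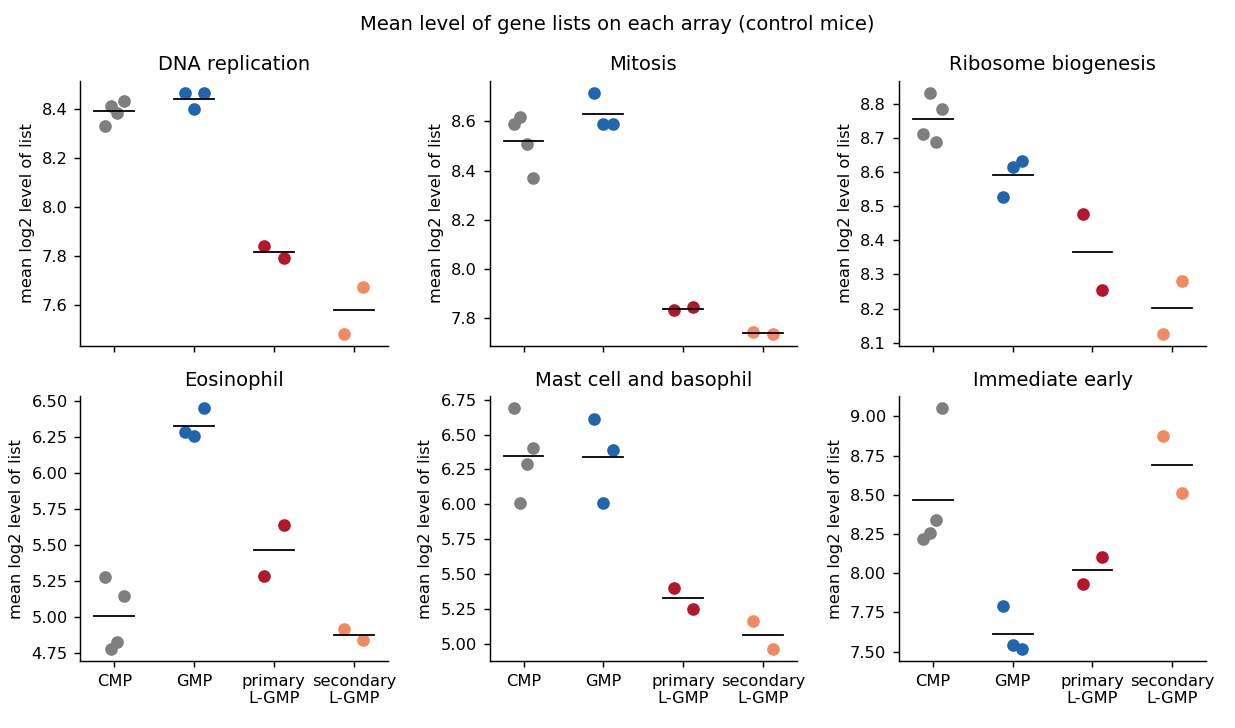
Mean log2 level of 6 gene lists on each array of control mice (points are arrays, bars are group means; each panel has its own vertical scale, which does not start at 0). For replication and mitosis the 4 L-GMP arrays lie below all CMP and GMP arrays, for eosinophil genes the GMP arrays lie above all others, and for immediate early genes the GMP arrays lie lowest.

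Myc and part of the ribosome biogenesis genes fell too. Myc, the transcription factor that drives growth and division, was at 10.66 and 10.12 in primary L-GMPs, 9.35 and 9.06 in secondary L-GMPs and 10.9, 11.04 and 10.98 in GMPs, a fall by 1.17 ± 0.24 (adjusted p = 0.00346). Of the 12 measured genes of its network 2 were higher and 5 lower, and under median centring 3 and 3. Over all genes 10.6% were called higher and 14.7% lower, shares to be set beside each list count of this paragraph. Of 20 ribosome biogenesis genes 6 were lower and 0 higher (median -0.29), where Polr1b, a subunit of RNA polymerase I, fell by 0.66 ± 0.16 (adjusted p = 0.00747) and Rrp9, a processing factor of ribosomal RNA, by 0.62 ± 0.12 (adjusted p = 0.00282). The mean level of the list was 8.13 to 8.48 on the L-GMP arrays and 8.53 to 8.63 on the GMP arrays. In glycolysis Hk2, the inducible hexokinase, fell by 1.37 ± 0.21 (adjusted p = 0.000509) and Pfkl, a phosphofructokinase, by 0.98 ± 0.18 (adjusted p = 0.00194), among 4 lower and 2 higher of 18 measured. Hk1 gave 0.44 on the probe set used and -0.91 on another, so its direction depends on the probe set. In the BCL2 family 2 of 12 measured genes were lower and 1 was higher, all 3 promoters of cell death. Bak1 and Bid fell by 1.09 ± 0.21 (adjusted p = 0.00225) and 0.63 ± 0.13 (adjusted p = 0.00383). Pmaip1 was higher by 0.91 ± 0.31 (adjusted p = 0.0443), a call lost with the Xist covariate (0.376) and without any 1 array other than primary replicate 2, up to 0.124 without GMP replicate 3. The ribosome count was 3 with Xist as a covariate, without GMP replicate 2 or without secondary replicate 1, and the lower MYC network genes were 3 without any 1 GMP array, 2 without primary replicate 2 and 1 without secondary replicate 2, while the higher were 0 without GMP replicate 1, GMP replicate 3 or primary replicate 2 and 1 without GMP replicate 2 or secondary replicate 1.

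Among granulocyte and monocyte genes, single receptors and factors changed, while the granule proteases Elane, Prtn3 and Ctsg did not pass the test. The differences of the primary granule proteases Elane, Prtn3 and Ctsg were -0.27 ± 0.5, -0.55 ± 0.42 and -0.18 ± 0.41. Mpo, myeloperoxidase, was at 12.56 and 11.66 in primary L-GMPs, 11.44 and 9.74 in secondary L-GMPs and 12.71, 12.82 and 12.82 in GMPs, and its difference of -1.43 ± 0.6 did not pass (adjusted p = 0.088). Ctsc, the protease that activates the granule proteases, was at 7.03, 6.54, 6.64 and 7.12 against 9.32, 8.44 and 8.3, a fall by 1.85 ± 0.46 (adjusted p = 0.0096, and 0.0501 without GMP replicate 1). Prss57 and Ms4a3 of the same list were also called lower, at -1.52 and -1.73. Both of these calls were lost without GMP replicate 2, GMP replicate 3, primary replicate 2 or secondary replicate 2. Of 10 primary granule genes 4 were lower and 1 higher (median -0.67), where 14.7% and 10.6% of all genes were. The higher one was lost without any 1 array. The lower ones were 2 without GMP replicate 1 or primary replicate 2 and 1 without GMP replicate 2, GMP replicate 3 or secondary replicate 2.

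Among 16 genes of secondary granules and mature neutrophils 1 was higher, 2 were lower and 13 were not called (median -0.16), where 10.6% and 14.7% of all genes were higher and lower. Cxcr2, the chemokine receptor that releases neutrophils from the marrow, fell by 2.05 ± 0.19 (adjusted p = 1.57e-05), from 6.87, 6.64 and 6.8 to 5.07, 4.64, 4.28 and 4.9. Mmp9 differed by -0.42, a call lost with the Xist covariate and without GMP replicate 1, GMP replicate 2, primary replicate 2 or secondary replicate 2. Cd177, a surface protein of neutrophils, was higher by 1.31 ± 0.22 (adjusted p = 0.000866, and 0.0562 with the 7 arrays alone). Of 15 transcription factors of the lineage 1 was higher and 3 were lower, or 1 lower without GMP replicate 1, where 10.6% and 14.7% of all genes were. Irf8, which directs progenitors to monocytes and dendritic cells, was at 6.75, 8.53, 7.17 and 6.69 against 9.1, 8.51 and 8.49, a fall by 1.42 ± 0.29 (adjusted p = 0.00342, and 0.0873 with the 7 arrays alone). Primary replicate 2 lay inside the GMP range, and without it the difference was -1.86 (adjusted p = 3.23e-05). Egr2, an early growth response factor, rose by 1.48 ± 0.34 (adjusted p = 0.00581).

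Of 15 cytokine receptors 4 were lower and 1, Flt3, was higher, where 14.7% and 10.6% of all genes were. Csf1r, the receptor of the macrophage growth factor, was at 6.87, 7.8, 7.11 and 6.96 against 9.23, 8.56 and 8.42, a fall by 1.55 ± 0.24 (adjusted p = 0.000466). Csf3r, the receptor of the granulocyte growth factor, fell by 0.8 ± 0.16 (adjusted p = 0.00317). Kit, the stem cell factor receptor, was at 9.03, 7.53, 7.62 and 6.33 against 8.65, 9.02 and 8.89, with primary replicate 1 at the GMP level, and differed by -1.23 ± 0.33 (adjusted p = 0.0141). The Kit call was lost without GMP replicate 2 (0.0589), primary replicate 2 (0.0592) or secondary replicate 2 (0.0593) and with the 7 arrays alone (0.126). Flt3, the receptor of another early growth factor, was at 9.16, 6.9, 8.28 and 7.98 against 6.15, 6.1 and 5.36, so that no array overlapped. Its difference of 2.21 ± 0.73 (adjusted p = 0.0366) was lost with Xist as a covariate (0.135), with the replicate block (0.0875), with the 7 arrays alone (0.0524) and without any 1 array other than primary replicate 2, the highest being 0.125 without GMP replicate 3. CMPs held Flt3 at 8.05 ± 0.25 (SD, n = 4), and the L-GMPs differed from them by 0.03 ± 0.67 (adjusted p = 0.997).

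Of 8 eosinophil genes 4 fell in L-GMPs, those of granule proteins. Prg2, major basic protein of eosinophils, was at 7.75 and 8.35 in primary L-GMPs, 5.69 and 5.66 in secondary L-GMPs and 10.39, 10.2 and 10.5 in GMPs, a fall by 3.5 ± 0.44 (adjusted p = 0.000143). Epx, eosinophil peroxidase, was at 4.49, 4.09, 4.29 and 4.35 against 6.66, 7.02 and 7.02, a fall by 2.6 ± 0.2 (adjusted p = 2.29e-06). Ear6, an eosinophil ribonuclease, was at 4.74, 4.76, 4.64 and 4.53 against 7.2, 6.95 and 7.1, a fall by 2.41 ± 0.13 (adjusted p = 4.56e-08). With Prg3, these were 4 lower and 0 higher (median -0.79), where 14.7% and 10.6% of all genes were. The receptors Il5ra (-0.26), Ccr3 (0.13) and Siglecf (0.65) and the lipoxygenase Alox15 (0.02) did not pass. Prg3 differed by -1.32 ± 0.37 (adjusted p = 0.0186) and was lost without GMP replicate 2 (0.0525) or GMP replicate 3 (0.0799) and with the Xist covariate (0.123). The mean level of the list was 4.83 to 5.64 on L-GMP, 6.25 to 6.45 on GMP and 4.77 to 5.28 on CMP arrays. In RNA of a bulk sort, fewer cells of a type and less RNA per cell cannot be told apart, here or in the lists that follow.

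Of 14 mast cell and basophil genes 2, Prss34 and Kit, were lower and 0 higher, where 14.7% and 10.6% of all genes were. The lower share was thus near that of all genes, while the list median was -1.04, against -0.02 over all genes. The lower count was 1 without GMP replicate 2, primary replicate 2 or secondary replicate 2, and it was 4 with array weights and 6 with the 7 arrays alone. Prss34, a protease of basophils and mast cells, was at 4.86, 4.63, 4.76 and 4.69 against 9.92, 7.82 and 7.96, a fall by 3.83 ± 0.46 (adjusted p = 9.88e-05). Fcer1a, the chain of the IgE receptor that binds IgE, was at 3.1, 3.0, 4.39 and 3.47 against 7.53, 5.15 and 6.54 without overlap, but its difference of -2.92 ± 1.17 did not pass (adjusted p = 0.0785), and the carboxypeptidase Cpa3, a defining mast cell gene, was higher on most L-GMP arrays, at 10.61, 10.31, 9.3 and 8.65 against 9.05, 8.16 and 9.12 (0.94 ± 0.75, adjusted p = 0.375). The mean level of this list was 4.96 to 5.4 on L-GMP and 6.01 to 6.61 on GMP arrays.

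Erythroid (1 of 15 higher, 0 lower), megakaryocyte (0 of 10 higher, 1 lower), monocyte and macrophage (1 higher and 2 lower of 14), stem cell (0 higher and 2 lower of 15), lymphocyte (4 higher and 1 lower of 17), dendritic cell and MHC class II (3 higher and 2 lower of 15) and stromal (2 higher and 1 lower of 15) lists had medians between -0.37 and 0.15. Each of these counts changed when single arrays were left out. The 4 higher lymphocyte genes all lost their calls with the Xist covariate and without GMP replicate 1 or GMP replicate 2. They also lost them without primary replicate 2, secondary replicate 1 or secondary replicate 2. Over all genes 10.6% were called higher and 14.7% lower. In the MHC class II list H2-Aa, a chain of the antigen-presenting molecule, was at 4.5, 4.62, 4.67 and 4.78 against 7.01, 5.73 and 6.59 (-1.8 ± 0.46, adjusted p = 0.0106, and 0.0529 without GMP replicate 1). In the stromal list the collagen genes Col1a1 (0.65 ± 0.17) and Col1a2 (0.53 ± 0.16) were the higher ones, highest in primary replicate 2, and fibronectin, Fn1, was the lower one. All 3 calls were lost without single arrays, at an adjusted p of 0.054 for Col1a1 without GMP replicate 2, up to 0.0952 for Col1a2 without primary replicate 2 and up to 0.0529 for Fn1 without secondary replicate 1 (0.0564 with the Xist covariate). The stromal list levels were 5.06 to 5.34 on L-GMP and 5.1 to 5.18 on GMP arrays, and the part of such cells in any result above was not tested.

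Among 17 homing and adhesion genes, where 14.7% of all genes were lower and 10.6% higher, 5 were lower and 0 higher (1 higher without GMP replicate 1 and 3 without primary replicate 1): Ccr2 and Cxcr2, given above, the tetraspanin Cd9, and the integrin chains Itgal and Itgb1. Cd9 was at 5.84, 5.64, 5.02 and 4.8 against 7.14, 7.26 and 7.44, a fall by 1.95 ± 0.5 (adjusted p = 0.0118). Itgal differed by -0.87 ± 0.24 (adjusted p = 0.0173, and 0.0647 without GMP replicate 1 or 0.093 with the Xist covariate) and Itgb1 by -0.7 ± 0.2 (adjusted p = 0.017, 0.0556 without GMP replicate 2 and 0.127 with the 7 arrays alone). Of 16 surface genes described on leukaemic stem cells 2 were higher, Cd33 and Cd200, and 4 lower, with a median of 0.02. Cd200, an inhibitory ligand, was at 5.07, 5.29, 4.83 and 4.74 against 4.37, 4.22 and 4.25, a rise by 0.71 ± 0.11 (adjusted p = 0.000572). Cd93, a receptor of progenitors, fell by 0.9 ± 0.13 (adjusted p = 0.000301), and Ly6e by 0.97 ± 0.14 (adjusted p = 0.000327). Cd34, which marks progenitors and is part of common GMP gates, was at 9.38, 9.97, 9.24 and 8.71 against 10.24, 10.05 and 10.08, a fall by 0.8 ± 0.18 (adjusted p = 0.00542).

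Immediate early genes, which respond within minutes to growth factors, were in part higher. Of 16 measured 5 were higher and 0 lower (median 0.68), where 10.6% and 14.7% of all genes were. The list level was 7.93 to 8.88 on L-GMP, 7.51 to 7.79 on GMP and 8.21 to 9.05 on CMP arrays, so that the GMPs lay lowest. Btg2, a brake on division, was at 8.68, 8.23, 9.21 and 8.41 against 7.65, 7.65 and 7.56, a rise by 1.01 ± 0.2 (adjusted p = 0.0028). Zfp36, which destabilises cytokine mRNAs, was at 9.78, 9.93, 10.71 and 10.41 against 9.75, 9.21 and 8.83, a rise by 0.95 ± 0.2 (adjusted p = 0.0041). Klf2 differed by 1.54 ± 0.36 (adjusted p = 0.0071, and 0.067 with the Xist covariate). The count was 3 without any 1 of the GMP arrays or secondary replicate 1, 2 with the Xist covariate and 8 under median centring. Against CMPs only 1 member of the list was higher and 2 were lower. Of 16 STAT5 target and feedback genes Id1, an inhibitor of differentiation factors, rose by 1.09 ± 0.2 (adjusted p = 0.00194) and 0 were lower.

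**Figure D4:**
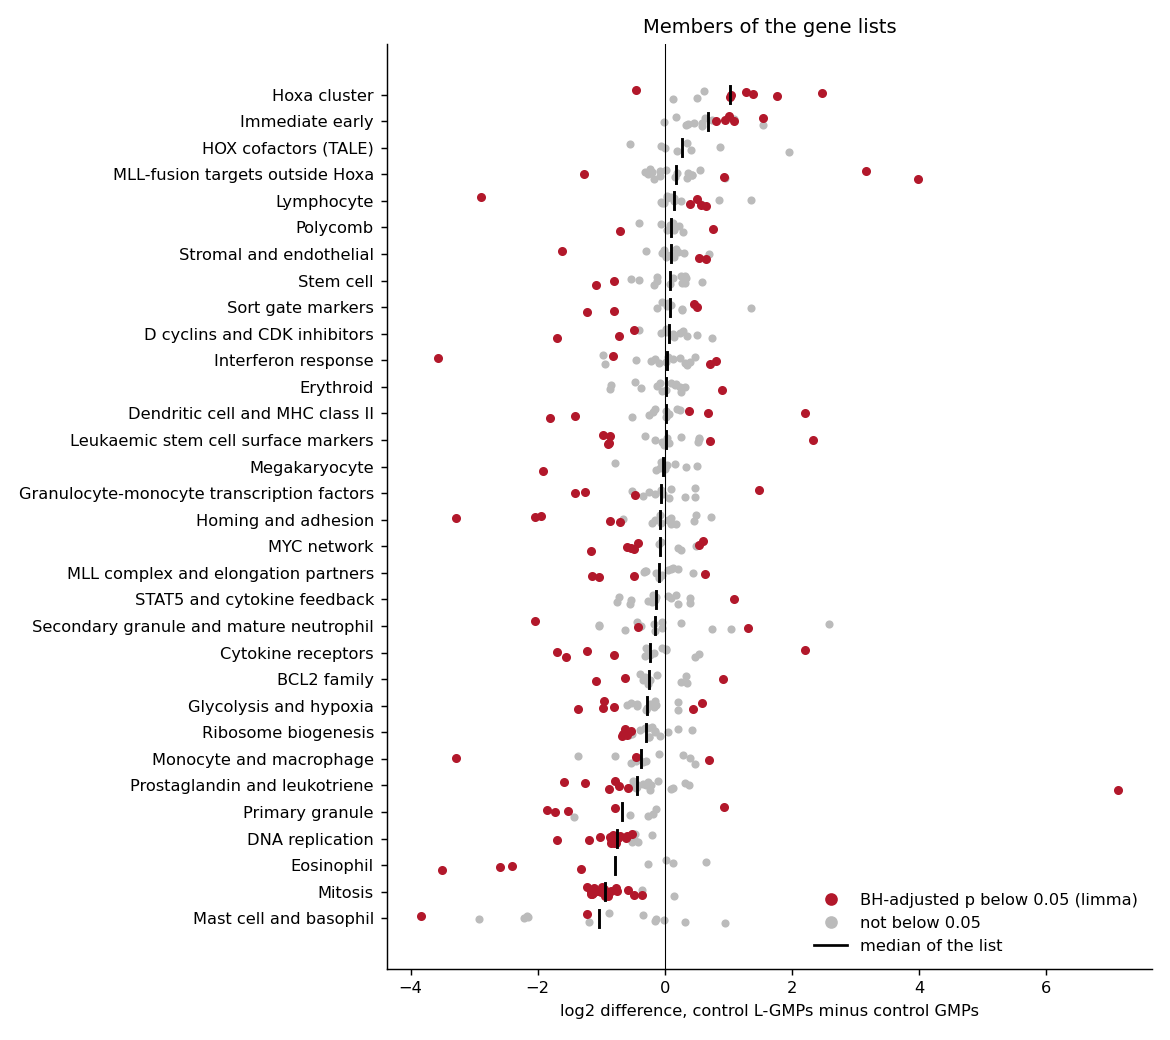
Log2 difference of each measured member of the 32 gene lists between control L-GMPs and control GMPs, with lists ordered by their median (red points have a BH-adjusted p below 0.05, grey points do not, black bars are list medians). The Hoxa cluster has the highest median at 1.03, and the lists for mitosis and for mast cells and basophils the lowest, at -0.95 and -1.04.

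Primary and secondary L-GMPs were also compared with each other. The question is whether the differences from GMPs depended on the passage through a second recipient. Against the same 3 GMP arrays 4290 genes (21.5%) were called in primary L-GMPs, 1941 higher (9.74%) and 2349 lower (11.8%), and 3563 (17.9%) in secondary L-GMPs, 1329 higher (6.67%) and 2234 lower (11.2%). Under median centring these splits were 2482 and 1869 and 1896 and 1813. The primary count was 939 without primary replicate 2, 2571 without GMP replicate 2 and 2659 without GMP replicate 3, and the secondary count 1386 and 2295 without secondary replicates 2 and 1 and 2193 without GMP replicate 2. The test of the difference between the passages called 1536 genes (7.7%), 805 higher (4.04%) and 731 lower (3.67%) in secondary L-GMPs. Of the 15 largest rises and 15 largest falls against GMPs, Igf2bp3, Stfa3, Prg2 and Nkg7 were called between the passages. For Hpgd, Hoxa9, Eya1 and Met no difference was called: it was -0.11 for Hpgd (SE 0.19), -0.22 for Hoxa9 (SE 0.58), 0.34 for Eya1 (SE 1.05) and -0.35 for Met (SE 0.27).

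Apoc1, an apolipoprotein, was at 4.35 and 4.23 in primary and at 8.33 and 8.27 in secondary L-GMPs, with GMPs between them at 5.43, 5.45 and 5.74. It differed by 4.01 ± 0.22 (adjusted p = 1.18e-07). Stag3, a cohesin subunit of meiosis, was at 5.2 and 6.1 against 8.52 and 8.6 (2.91 ± 0.21, adjusted p = 1.85e-06), with GMPs at 4.85 to 5.33. Aspa, which breaks down acetylaspartate, was at 3.51 and 6.82 against 7.83 and 8.22 (2.86 ± 0.64, adjusted p = 0.0142). Lcn2, lipocalin of neutrophil granules, was at 6.63 and 4.44 against 8.99 and 9.6 (3.76 ± 0.6, adjusted p = 0.00232), with GMPs between them, and Mgst1, a glutathione transferase, differed by 2.88 ± 0.73 (adjusted p = 0.0263). In the other direction Clec2d, the ligand of an inhibitory natural killer cell receptor, was at 8.48 and 7.92 in primary and at 5.74 and 4.88 in secondary L-GMPs (-2.89 ± 0.39, adjusted p = 0.000713). Angpt1, angiopoietin made by stem cells and stroma, was at 7.46 and 6.85 against 4.08 and 4.38 (-2.92 ± 0.5, adjusted p = 0.0032), with GMPs at 6.39 to 7.05. Xlr, an X-linked gene, was at 7.56 and 5.33 against the floor of 3.0 on both secondary arrays, so that its difference of -3.45 (adjusted p = 0.00981) is a lower bound in size, and Nkg7 and Prg2 also fell further, by 2.36 ± 0.59 and 2.37 ± 0.58.

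These calls lean on the spread of the other groups. With the 4 arrays fitted alone 0 genes were called by limma (2228 at an unadjusted p below 0.05), and with array weights, which give the primary arrays a weight of 0.31, the count was 151. Apoc1, Stag3, Clec2d and Aspa passed with array weights, at adjusted p of 0.000265, 0.000121, 0.0161 and 0.0447, while Lcn2 (0.0673), Angpt1 (0.0673), Nkg7 (0.0836), Mgst1 (0.103), Xlr (0.262) and Prg2 (0.371) did not. The count was 3074 without primary replicate 1, 687 without primary replicate 2 and 366 without secondary replicate 2, where the adjusted p was 0.173 for Nkg7, 0.0685 for Xlr and 0.106 for Aspa, and the highest values for Prg2 (0.139) and Mgst1 (0.232) came without primary replicate 2.

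**Figure D5:**
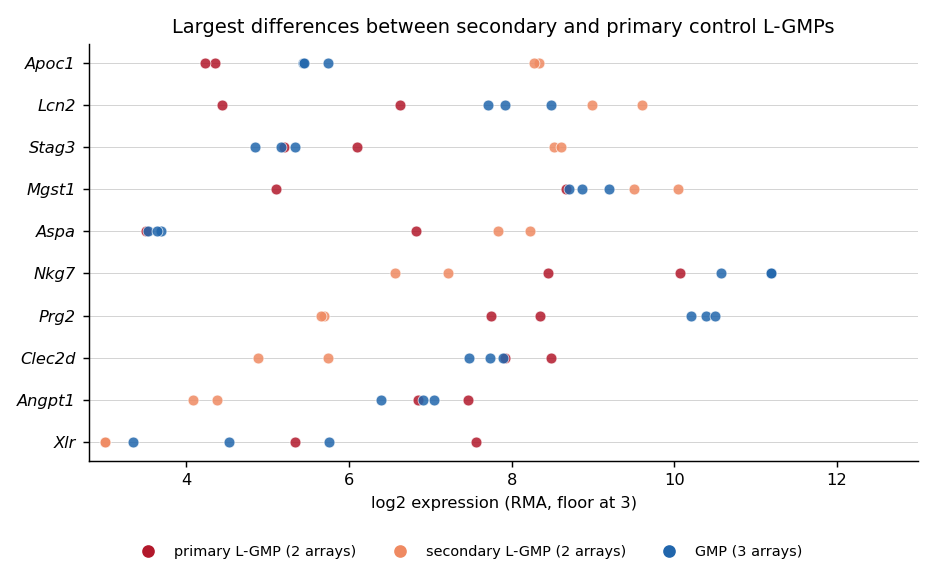
Log2 expression of the 5 largest called differences in each direction between secondary and primary control L-GMPs, on each array, with the GMP arrays for reference (red primary L-GMPs, orange secondary L-GMPs, blue GMPs). Apoc1 lies above the GMPs on both secondary arrays and below them on both primary arrays.

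The position of the L-GMPs against CMPs, the stage before the GMP, shows which differences from GMPs also hold against an earlier progenitor. Both comparisons use the same L-GMP arrays, so their values are given side by side. Against 4 CMP arrays 6951 genes (34.9%) were called, 3107 higher (15.6%) and 3844 lower (19.3%), or 4842 and 3080 under median centring. Hpgd was higher by 7.03 ± 0.14 against CMPs and 7.12 ± 0.15 against GMPs, Hoxa9 by 1.91 ± 0.41 and 2.47 ± 0.45, Eya1 by 2.95 ± 0.74 and 3.98 ± 0.8, and Hoxa7 by 0.71 ± 0.2 and 1.39 ± 0.21. Met was lower by 3.07 ± 0.19 and 3.85 ± 0.2. For eosinophil genes the picture differed, since CMPs held them low: Ear6 differed by 0.3 ± 0.12 from CMPs (adjusted p = 0.0744) and Prg2 by -0.25 ± 0.41 (adjusted p = 0.679). Vegfa, the endothelial growth factor, was higher by 1.45 ± 0.12 against CMPs and by 0.59 ± 0.13 against GMPs. Pf4, a platelet chemokine, was lower by 5.64 ± 0.63 against CMPs (adjusted p = 2.67e-05), and of 15 erythroid genes 12 were lower against CMPs where 0 were lower against GMPs. Replication and mitosis genes were lower against both, with 17 of 25 and 19 of 22 called against CMPs.

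L-GMPs of knockout origin, which lack C/EBPa, were compared with the control L-GMPs, to give the leading genes where it is absent. The 3 arrays came from a leukaemia that arose after IL-3 and GM-CSF vectors were injected, and the labels tie both secondary arrays to the same primary mouse, so they stand for 1 leukaemia. The fit counts them as separate samples, so its calls compare these arrays and say nothing of the spread between leukaemias that lack C/EBPa. Across genes 651 (3.27%) were called, 419 higher (2.1%) and 232 lower (1.16%), and with the 7 L-GMP arrays alone 11 were. Xist was high on 1 of 1 primary and 2 of 2 secondary knockout arrays. It was high on 1 of 2 primary and 0 of 2 secondary control L-GMP arrays, so sex moved with this comparison too. With Xist as a covariate 455 genes were called, of which 373 were among the 651. Hpgd was at 11.11 ± 0.06 (SD), Eya1 at 9.47 ± 0.2, Hoxa9 at 7.73 ± 0.29 and Igf2bp3 at 8.66 ± 0.1 in knockout L-GMPs, all above the GMP arrays. Hpgd lay slightly below the control L-GMP arrays, and none of these 4 genes was called between the leukaemias (adjusted p of 0.0856, 1.0, 0.871 and 0.128). Ak4, which fell in control L-GMPs, was higher on the arrays of this knockout leukaemia by 3.81, Nkg7 by 2.59 and Ccnd2 by 1.07, and for Slfn4, which rose in control L-GMPs, the difference was -1.69. The count was 2449 without control primary replicate 1, 415 without control secondary replicate 2, and 427 and 409 without either secondary knockout array.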

How the data were processed

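Bone marrow populations of mice were profiled on Affymetrix arrays after whole-transcriptome amplification of total RNA with NuGen Ovation Pico WTA V2, per the labels' protocols. The authors' deposited value table holds log2 expression values, for which the submitters' processing notes name RMA and no version. Of 34760 probe sets 21640 had 1 gene symbol, 1321 several and 11799 none, and the brightest probe set stood for each of the 954 genes with several. Between 3126 and 3379 probe sets per array lay at the floor of 3, and the number of arrays limits the precision.

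The members and the gene lists (32 lists, 485 entries measured) were chosen with earlier results of these data known. A linear model of 9 group means on 23 arrays was fitted with limma 3.58.1 (R 4.3.3), with a trend in the prior variance and Benjamini-Hochberg adjustment over 19937 genes, at a threshold of 0.05. The L-GMP mean weights both passages equally. Genes named are Cebpa, Hoxa9, Hpgd and Eya1, the 15 largest rises and 15 largest falls among called genes whose arrays do not overlap (small RNAs, predicted and clone-named genes, olfactory and antigen receptor genes, Xist and Y-linked genes excepted), up to 6 called members of each list, and the leading genes of the other comparisons; further list members, Il7r among them, are given by list. On data simulated for L-GMPs against GMPs with the observed noise of each group, the fit recovered 68% of 2-fold and 95% of 4-fold changes. Alternatives were array weights, the compared arrays alone, a filter on dim genes (log2 below 5 on both sides), the mean of probe sets, median centring, Xist as a covariate, the replicate number as a block, and leaving out each array.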

Additional observations from a re-analysis of the deposited data

Results flagged for a closer look

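A single array stood apart from the other L-GMP arrays in 8 of 148 genes, by a gap test that chance alone passes in about 1 in 20 groups, so that 8 is near the number chance gives. Primary replicate 2 was the highest for Prg3 (7.71), Col1a1 (7.3), Itgal (7.38) and Nusap1 (7.74), and the lowest for Pmaip1 (6.5), a promoter of cell death. Primary replicate 1 was the highest for Bhlhb9 (4.93) and Gins2 (8.04). Secondary replicate 1 was the lowest for Hpgd (11.46), a gene in which that gap is small beside the distance to the GMPs.

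Secondary and primary L-GMPs differed, by limma's test of the difference itself with Benjamini-Hochberg adjustment, in further genes of the lists. In secondary L-GMPs Igf2bp3 was higher by 1.74, Stfa3 by 1.78, Id1 by 1.03, Apoc1 by 4.01, Lcn2 by 3.76, Stag3 by 2.91, Mgst1 by 2.88 and Aspa by 2.86. Lower were Prg2 (-2.37), Nkg7 (-2.36), Angpt1 (-2.92), Xlr (-3.45) and Clec2d (-2.89). Myc (-1.19), Nop56 (-1.01), Gar1 (-0.87), Cdk4 (-0.68) and Pola1 (-0.89) were lower, as were Ezh2 (-0.82), Calr (-1.25), Cebpg (-0.75), Csf3r (-0.84), Ly6e (-0.74) and Cd93 (-1.16). By list, 3 of 25 DNA replication, 0 of 22 mitosis and 3 of 20 ribosome biogenesis genes (median 0.01) were lower, where 3.67% of all genes were. So were 3 of 12 MYC network genes and 2 of 14 D cyclins, their kinases and inhibitors. The comparison as a whole had 151 calls with array weights and 0 with its 4 arrays alone.

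Knockout and control L-GMPs differed by the same test, in which 3 knockout arrays of 1 leukaemia count as separate samples. Sex also moved with this comparison, by the Xist values given above. Cebpa was lower by 2.71 in knockout L-GMPs, which is a check of the deletion. Higher in knockout L-GMPs were Xlr (4.2), Ak4 (3.81), Nkg7 (2.59), Bhlhb9 (1.98), Prss57 (1.98), Clec5a (1.38), Egln3 (1.36), Jmjd1c (1.27), Ccnd2 (1.07), Ly6e (0.86), Bid (0.84), Cebpg (0.69) and Cd93 (0.66). Lower were Slfn4 (-1.69), Stag3 (-1.56), Id1 (-0.99), Ifit3 (-0.66), Abcc4 (-0.63) and Cd200 (-0.59). Of these calls Clec5a was lost in 9 of 14 alternatives, Ifit3 in 9 of 13, Cebpg in 8 of 14, Prss57 and Abcc4 in 6 of 14 and Id1 in 4 of 14, in each case also without single arrays. With Xist as a covariate Abcc4, Cebpg, Cd93, Id1 and Ifit3 lost their calls. Xlr and Bhlhb9, both on the X chromosome, kept theirs.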

How the results depend on the processing

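Of the 142 genes named and called in L-GMPs against GMPs, the calls kept were 106 with Xist as a covariate, 122 with array weights, 134 of 134 with dim genes left out, 139 with the mean of probe sets, 136 under median centring, 116 with the replicate block, 106 with the compared arrays alone and 100 to 129 without any 1 array. Deviations of same-numbered arrays from their group means had correlations of -0.192 to -0.034. In a group of 2 arrays the deviations mirror each other, so these values cannot settle whether the numbers pair samples. The main fit paired none.

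The count for control L-GMPs against control GMPs was 3342 with the replicate block, 3258 with the compared arrays alone and 2764 to 6494 without any 1 array. For primary control L-GMPs against control GMPs it was 1197 with array weights, 2731 with the replicate block, 1092 with the compared arrays alone and 939 to 5978 without any 1 array. For secondary control L-GMPs against control GMPs it was 1851 with the Xist covariate, 5439 with array weights and 1386 to 2742 without any 1 array. For secondary against primary control L-GMPs it was 937 with the Xist covariate, 151 with array weights, 0 with the compared arrays alone (limma; 2228 at an unadjusted p below 0.05) and 366 to 3074 without any 1 array. For control L-GMPs against control CMPs it was 5195 to 7901 without any 1 array. For knockout against control L-GMPs it was 409 with the replicate block, 11 with the compared arrays alone and 409 to 2449 without any 1 array. Fits to fewer arrays have fewer degrees of freedom; the cause of the other shifts was not tested.

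Hk1 reversed to -0.24 (adjusted p = 0.0371) with the mean of its probe sets, from 0.44.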

Other observations

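Primary L-GMP replicate 1 carried further lymphoid transcripts beside Il7r, in genes chosen after their values were seen. Ebf1, a B cell transcription factor, was at 5.46 there and at 3.23 to 3.39 on the other L-GMP arrays, against 3.15, 3.45 and 3.26 in GMPs. Rag2, part of the recombinase of antigen receptor genes, was at 5.42 and at 3.31 to 3.75, against 3.66, 4.11 and 3.79. Vpreb1, a chain of the pre-B cell receptor, was at 7.86 and at 5.63 to 6.34, against 6.41, 6.15 and 7.2. The mean level of the lymphocyte list was 5.68 on this array, and that list spanned 4.92 to 5.06 on the GMP arrays.

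Among myeloid genes, also chosen after their values were seen, Chil3, a chitinase-like protein of neutrophils and macrophages, was at 11.53, 11.09 and 11.48 in primary replicate 1 and the secondary L-GMPs and at 4.61 in primary replicate 2, with GMPs between them at 7.23, 7.18 and 6.86. Fcnb, a ficolin of myeloid cells, was at 9.45 in primary replicate 1 and at 5.44 to 5.54 on the other L-GMP arrays, against 6.73, 7.73 and 8.09 in GMPs.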
